A study of Rattus norvegicus with 12 samples.

Results

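The genes described here encode subunits of the mitochondrial respiratory chain and ATP synthase, with a few proteins that assemble or inhibit them. They were chosen by symbol alone: names that start with Nduf, Uqcr, Cox4 to Cox8 or Atp5, and the succinate dehydrogenase genes Sdha, Sdhb, Sdhc and Sdhd. A probe named for such a gene was on the array for 69 genes. Of these, 67 were tested because every array of some group (3 of 3) read them well above background, among 9289 named genes and 25905 features in all (each named gene or unnamed probe is 1 feature). The other 2, the complex III gene Uqcrq and the testis isoform gene Cox8c, were not well above background throughout any group (Uqcrq on 1 of the 12 arrays, Cox8c on none). RefSeq lists 118 protein-coding rat genes under the same names, and 49 of them had no probe named here. Of the 67 genes, 66 were well above background on all 12 arrays and Cox8b on 11.

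The RNA came from the cerebral cortex of Wistar rat pups, on the side of the injury, and was hybridised to 12 single-colour Agilent whole-genome arrays. The 4 groups held 3 pups each: Rice + saline, Control + saline, Rice + MCI-186 and Control + MCI-186. Rice pups had the left common carotid artery tied on day 7 of life and then breathed 8% oxygen for 1 h in a chamber at 33 °C, a model of hypoxic and ischaemic injury of the newborn brain. MCI-186, also called edaravone, is a free radical scavenger and was injected into the abdomen at 9 mg per kg, while the other pups were given 100 µl of saline. The injured pups had a second injection after 30 min, and the labels state an age of 2 weeks. Whether control pups had a sham operation or a second injection, and when tissue was taken, was not stated, so injury, surgery and number of injections cannot be told apart in Rice minus Control values. The model injures only the side of the ligated artery, and the cortical sample holds all its cell types together. Nothing in the labels states that pups came from separate litters, so the p values measure the spread between these pups.

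The respiratory chain sits in the inner mitochondrial membrane. Complex I takes electrons from NADH and complex II from succinate, complex III passes them to cytochrome c, and complex IV passes them on to oxygen. Complexes I, III and IV pump protons, and complex V, the ATP synthase, makes ATP as the protons flow back. Most subunits are nuclear genes, as all genes here are, and neurons depend on this chain for the ATP that ion pumping and synaptic transmission use. Transcription of many such genes is known to involve nuclear respiratory factor 1, the GA-binding protein of the ETS family and YY1.

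For 60 of the 67 genes RefSeq's table for the GRCr8 assembly held the 300 bases around a start of the gene, 250 before it and 50 after. For some genes, Cox6a2 among them, this start lay inside the span listed for the gene and not at its outer end. A search of both strands for core motifs of these 3 factors found the nuclear respiratory factor 1 core CGCATGCGC in 7 of the 60 promoters (11.7%), against 1.93% of 21851 protein-coding promoters. This core had been shortened by 1 letter after a longer form was searched, which raised its matches. The ETS core CCGGAAG was in 18 (30.0%), against 10.7% of all. The YY1 core AAGATGGCG was in 6 (10%), against 2.07% of all. At least 1 of the 3 was in 26 promoters and none in 34, and the median GC content was 57.2%, against 55.0% over all. Matches of different motifs did not overlap. These are matches of letters and not shown to be bound sites. Of the holders of each motif, the gene with the lowest adjusted p for injury averaged over both injections is shown, with matches in capitals, and Cox6a2 is shown as the gene with the largest fall, whose window held none of them.
Atp5po: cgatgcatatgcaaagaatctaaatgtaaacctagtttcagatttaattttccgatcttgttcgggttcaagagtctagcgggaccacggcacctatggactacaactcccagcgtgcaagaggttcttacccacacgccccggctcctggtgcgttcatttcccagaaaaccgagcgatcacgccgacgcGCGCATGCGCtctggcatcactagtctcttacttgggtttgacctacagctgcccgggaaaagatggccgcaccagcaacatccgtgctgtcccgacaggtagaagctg
Cox4i1: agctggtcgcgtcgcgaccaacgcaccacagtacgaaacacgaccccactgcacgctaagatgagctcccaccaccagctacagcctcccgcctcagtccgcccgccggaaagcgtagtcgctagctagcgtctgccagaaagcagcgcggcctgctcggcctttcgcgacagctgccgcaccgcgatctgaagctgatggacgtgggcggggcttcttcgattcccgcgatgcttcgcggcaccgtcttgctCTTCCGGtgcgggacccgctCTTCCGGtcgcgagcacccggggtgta
Ndufb8: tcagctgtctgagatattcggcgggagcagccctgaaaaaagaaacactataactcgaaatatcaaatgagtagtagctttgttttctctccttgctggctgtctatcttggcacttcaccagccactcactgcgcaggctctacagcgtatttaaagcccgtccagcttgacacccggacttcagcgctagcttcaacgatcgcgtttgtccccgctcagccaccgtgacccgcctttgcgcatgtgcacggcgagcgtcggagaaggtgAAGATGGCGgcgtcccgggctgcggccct
Cox6a2: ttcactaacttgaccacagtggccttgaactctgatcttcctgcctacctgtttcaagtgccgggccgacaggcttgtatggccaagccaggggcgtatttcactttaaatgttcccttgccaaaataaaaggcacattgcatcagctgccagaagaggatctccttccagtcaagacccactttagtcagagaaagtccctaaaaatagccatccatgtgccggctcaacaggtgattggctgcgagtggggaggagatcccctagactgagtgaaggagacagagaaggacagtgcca
The Atp5po window (chr11:44657434-44657733, minus strand) belongs to the stalk subunit of ATP synthase and holds the nuclear respiratory factor 1 core upstream of the start, matched on both strands with an overlap. The Cox4i1 window (chr19:65630133-65630432, plus strand) belongs to a regulatory subunit of complex IV and holds 2 ETS cores on the opposite strand just after the start. The Ndufb8 window (chr1:253362887-253363186, minus strand) belongs to an accessory subunit of complex I and holds the YY1 core after the start. The Cox6a2 window (chr1:192219667-192219966, minus strand) belongs to the heart and muscle isoform of a complex IV subunit.

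Levels below are log2 of the background-subtracted signal over the 75th percentile of the array, so 0 is that percentile. A level can be compared between pups for 1 gene, not between genes, since probes differ in brightness. The 75th percentile signal lay between 920.4 and 1257.6 on the 12 arrays, 65.1% to 73.7% of spots were well above background, and arrays of 1 group correlated at 0.983 or more. The 3 arrays of a group shared a slide, and no slide held 2 groups. Slide and group therefore cannot be told apart in any pairwise comparison, although the injury could be read from 2 pairs of slides. Of the 67 genes, 46 were bright enough to be read from the scanner's low-gain scan on at least 1 array.

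The first comparison asked what the injury did to these transcripts in pups given saline. The set fell almost as a whole and by a similar amount. Of 67 genes, 65 were lower in Rice + saline than in Control + saline pups by limma with Benjamini-Hochberg adjustment over all features, and 0 were higher. Of all features, 30.2% were called lower and 19.3% higher. The median change of the 67 genes was -0.56 on the log2 scale, so the signal at the median fell by 32.2%, and the median over all features was -0.15. Changes ran from -1.99 for Cox6a2 to -0.10 for Cox4i2, and 53 of the 67 lay within 0.2 of the median. For 64 genes all injured pups with a value lay below all 3 controls (Cox7a2 had a value in 2 of the 3 injured pups), against 34.8% of features, and for 0 genes above them, against 22.3%. In bulk tissue, fewer cells of a type and less RNA per cell cannot be told apart.

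In pups given MCI-186 the comparison gave much the same values. Of 67 genes, 64 were lower in Rice + MCI-186 than in Control + MCI-186 pups and 0 were higher (limma), where 31.8% of features were called lower and 20.3% higher. The median change was -0.54, so the signal at the median fell by 31.3%, with a range from -1.76 for Cox6a2 to -0.11 for the assembly factor gene Ndufaf1. Again 53 genes lay within 0.2 of the median, and 65 had every injured pup below every control, against 41.2% of features, and 0 had the reverse, against 24.6%. The 2 comparisons share no pups. Averaged over both injections, 66 of the 67 were lower and 0 higher (limma), against 40.9% and 24.6% of features, and the exception was Cox4i2.

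**Figure D1:**
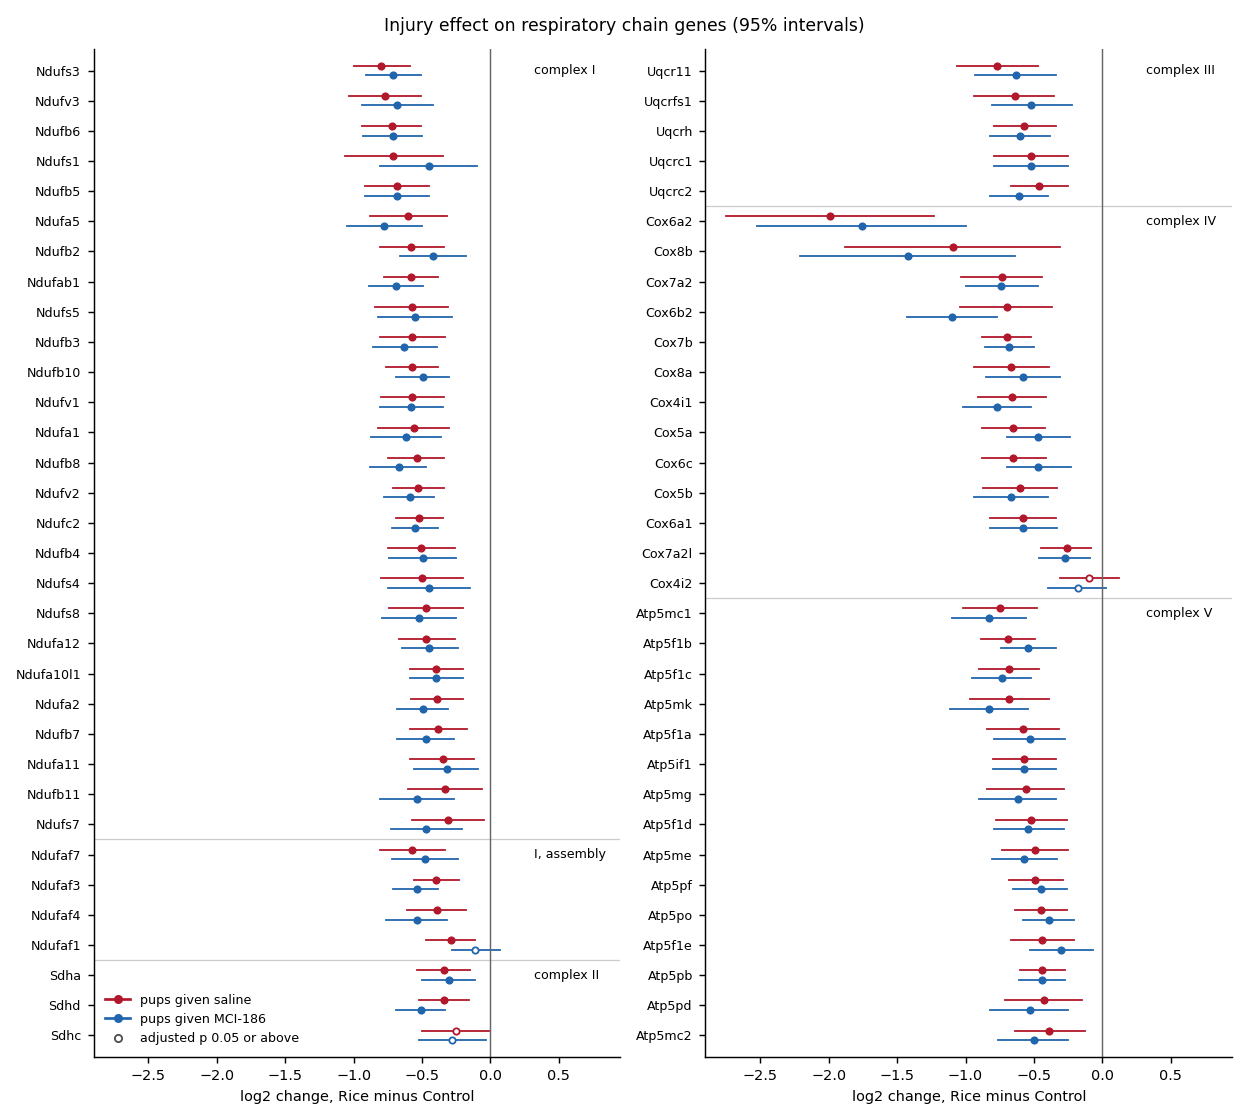
Log2 change of the 67 genes, 1 left out, Rice minus Control, in pups given saline (red) and pups given MCI-186 (blue), by complex, with 95% intervals from limma and open points where the adjusted p was 0.05 or above. All points lie left of 0, most between -0.8 and -0.3, with Cox6a2 and Cox8b furthest left.

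The brightness of a probe moved with this result. Features with a mean level of 4 or more fell more than dim ones, with a median of -0.28 with saline and -0.30 with MCI-186, and 49.8% and 52.6% of them were called lower (limma). The set has 46 genes at that level. All 46 were called lower in each arm, with medians of -0.57 and -0.56, about 0.3 below the median of equally bright features. The 46 genes read from the low-gain scan on some array had medians of -0.57 and -0.56, and the 21 read from the high-gain scan throughout had -0.50 and -0.49, with 19 and 18 of the 21 called lower. RefSeq lists pseudogene copies, which a probe could also read, for 34 of the genes. In the saline arm 33 of those 34 were called lower, as were 32 of the 33 with no copy listed. Nearly all genes of both kinds were called, so these counts could hardly show an effect of the copies. Quantile normalization, which takes out intensity-dependent differences between arrays, left medians of -0.40 in both arms, against -0.14 and -0.13 over all features under the same normalization, with 60 and 53 genes called lower and none above 0.

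**Figure D2:**
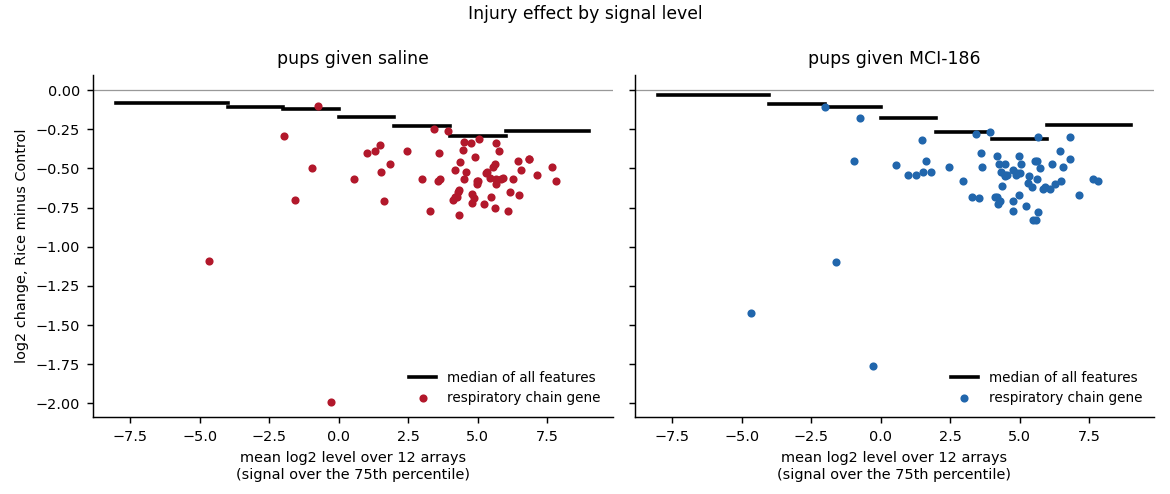
Log2 change (Rice minus Control) of each of the 67 genes against its mean log2 level over 12 arrays, in pups given saline (left) and MCI-186 (right); black bars are the median change of all features in the same range of levels. The bars lie between -0.22 and -0.31 at levels above 4, and nearly all of the genes lie below the bar of their own range.

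Complex I was represented by 27 subunit genes, and all 27 were lower in both arms, with a median of -0.54 in each. Ndufs3, a core subunit of the arm that carries electrons from NADH, had the largest fall in the saline arm. It was at 3.93, 3.79 and 3.90 in Rice + saline pups, against 4.67, 4.78 and 4.55 in Control + saline pups (change -0.80 ± 0.09, SE, limma adjusted p = 0.000127). With MCI-186 it was at 3.87, 4.08 and 4.01 in injured pups, against 4.70 in each of the 3 controls (-0.71 ± 0.09, limma adjusted p = 0.000215). The injured and control pups did not overlap in either arm. Ndufs1, the largest core subunit and a carrier of iron-sulphur clusters, was at 1.48, 1.17 and 1.05 in Rice + saline pups, against 1.69, 1.96 and 2.17 in Control + saline pups (-0.71 ± 0.16, limma adjusted p = 0.00479). Its change with MCI-186 was -0.45 ± 0.16 (limma adjusted p = 0.0349), with injured pups at 1.38, 1.67 and 1.21 and controls at 1.84, 1.87 and 1.91.

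The accessory subunits of complex I fell alongside the core. Ndufv3, which belongs to the NADH-oxidising module, changed by -0.77 ± 0.12 with saline and -0.68 ± 0.12 with MCI-186. Ndufb6, of the membrane arm, changed by -0.72 ± 0.10 and -0.71 ± 0.10. Ndufa5, of the peripheral arm, changed by -0.60 ± 0.12 and -0.78 ± 0.12, and Ndufab1, the mitochondrial acyl carrier protein, by -0.58 ± 0.09 and -0.69 ± 0.09. Limma adjusted p for these 4 genes lay between 0.000241 and 0.00313 over both arms. The smallest complex I changes in the saline arm were those of Ndufs7 (-0.31 ± 0.12, limma adjusted p = 0.0463) and Ndufb11 (-0.33 ± 0.12, limma adjusted p = 0.0455). These 2 genes are named because they were the only complex I subunits whose injured and control pups overlapped in that arm, and were picked out after their values were seen. Both calls were lost under some of the settings tried. They changed by -0.47 and -0.54 with MCI-186, with no overlap.

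The 4 tested factors that help build complex I fell less in the saline arm, with a median of -0.40, and had a median of -0.51 in pups given MCI-186. Ndufaf3 and Ndufaf4, which act together on the part that binds quinone, changed by -0.40 and -0.39 with saline and by -0.54 each with MCI-186. Ndufaf7, a methyltransferase of complex I assembly, changed by -0.57 and -0.48. All these calls passed limma (adjusted p from 0.000313 to 0.00768). Ndufaf1, needed for assembly of the membrane arm, was the exception in the MCI-186 arm. It was at -2.24, -2.21 and -2.14 in Rice + saline pups, against -1.96, -1.94 and -1.82 in Control + saline pups (-0.29 ± 0.08, limma adjusted p = 0.0139, and 0.0635 in a fit to only these 2 groups). In the MCI-186 arm it was at -1.99, -1.97 and -1.96 in injured pups, against -1.80, -1.84 and -1.96 in controls (-0.11 ± 0.08, limma adjusted p = 0.295), so the highest injured and lowest control pups met. Without Control_MCI186 replicate 1 the change was -0.07 (adjusted p = 0.564).

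Complex II, which is also an enzyme of the tricarboxylic acid cycle, moved least among the 5 complexes by its median, -0.34 with saline and -0.30 with MCI-186, but holds only 3 tested genes. Sdha, the flavoprotein that oxidises succinate, was at 5.49, 5.34 and 5.58 in Rice + saline pups, against 5.85, 5.81 and 5.77 in Control + saline pups (-0.34 ± 0.09, limma adjusted p = 0.00865). With MCI-186 it changed by -0.30 ± 0.09 (limma adjusted p = 0.0146), and this call was lost without Control_MCI186 replicate 2 (adjusted p = 0.0551) or Rice_MCI186 replicate 1 (adjusted p = 0.0541), and with quantile normalization (-0.15, adjusted p = 0.114). Sdhd, a membrane anchor that helps bind ubiquinone, changed by -0.34 ± 0.08 and -0.51 ± 0.08 (limma adjusted p = 0.00643 and 0.000687), the first of which was -0.16 and not called with quantile normalization (adjusted p = 0.0936). Sdhc, the other anchor, was at 3.30, 3.15 and 3.30 in Rice + saline pups, against 3.54, 3.55 and 3.43 in Control + saline pups, and did not pass (-0.25 ± 0.11, limma adjusted p = 0.0779). It was at 3.22, 3.17 and 3.57 in Rice + MCI-186 pups, against 3.62, 3.59 and 3.59 in Control + MCI-186 pups, and again did not pass (-0.28 ± 0.11, limma adjusted p = 0.0554), although it did without Rice_MCI186 replicate 3 (-0.40, adjusted p = 0.00614). The pups of the 2 groups did not overlap for Sdhc in either arm.

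All 5 tested complex III genes were lower in both arms, with medians of -0.57 and -0.60. Uqcr11, a small subunit of the complex, was at 5.84, 5.65 and 5.64 in Rice + saline pups, against 6.62, 6.57 and 6.25 in Control + saline pups (-0.77 ± 0.13, limma adjusted p = 0.00124). With MCI-186 it changed by -0.63 ± 0.13 (limma adjusted p = 0.00305). The injured pups lay below the controls in both arms. Uqcrfs1, the Rieske iron-sulphur protein, changed by -0.64 and -0.52. Uqcrh, the hinge protein next to cytochrome c1, changed by -0.57 and -0.60, and the core protein gene Uqcrc1 by -0.52 in each arm (limma adjusted p from 0.000857 to 0.00863 for these 3).

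In the saline arm complex IV had both the largest and the smallest change of the set. Of its 13 tested genes, 12 were lower in each arm, with medians of -0.66 and -0.67. Calls of a fall of 2-fold or more were 2 in the saline arm, Cox6a2 and Cox8b. With MCI-186 there were 3, these and Cox6b2. All are isoforms with restricted expression, but so is the lung isoform gene Cox4i2, which changed least in the saline arm. Cox6a2, the heart and skeletal muscle form of subunit 6a, which in mouse is also expressed in parvalbumin interneurons, was at -1.09, -0.84 and -1.48 in Rice + saline pups, against 0.97, 0.83 and 0.77 in Control + saline pups. This is a change of -1.99 ± 0.34, or 0.25 times the control signal (limma adjusted p = 0.0012). In the MCI-186 arm it was at -1.73, -0.28 and -1.80 in injured pups, against 0.34, 0.70 and 0.43 in controls (-1.76 ± 0.34, limma adjusted p = 0.002). Injured pups lay below controls by a wide margin in both arms, with Rice + MCI-186 pup 2 closest to them.

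Cox6b2, known as the testis form of subunit 6b, was at -2.19, -1.84 and -1.98 in Rice + saline pups, against -1.48, -1.20 and -1.22 in Control + saline pups (-0.70 ± 0.15, limma adjusted p = 0.00352). With MCI-186 it was at -2.23, -1.92 and -2.11 in injured pups, against -1.08, -1.18 and -0.70 in controls (-1.10 ± 0.15, limma adjusted p = 0.000299). Neither arm showed an overlap. Cox8b, the heart and muscle form of subunit 8, was dim, at -5.00, -5.96 and -4.60 in Rice + saline pups, against -4.11, -3.70 and -4.47 in Control + saline pups (-1.09 ± 0.35, limma adjusted p = 0.0258). The call was lost without Control_saline replicate 1 (-1.10, adjusted p = 0.0573), Control_saline replicate 2 (-0.90, adjusted p = 0.0929) or Rice_saline replicate 2 (-0.71, adjusted p = 0.0893), and in a fit to only these 2 groups (adjusted p = 0.0523). Cox8b was at -5.89, -4.93 and -5.40 in Rice + MCI-186 pups, against -4.23, -3.67 and -4.04 in Control + MCI-186 pups (-1.42 ± 0.35, limma adjusted p = 0.00706). The size of its fall depended on the processing. Besides fits without 1 array, other settings gave changes from -1.18 to -0.42 with saline and from -1.52 to -0.54 with MCI-186.

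The widely expressed complex IV subunits fell by amounts close to the rest of the chain. Cox4i1 was at 4.40, 4.34 and 4.35 in Rice + saline pups, against 5.11, 5.17 and 4.81 in Control + saline pups (-0.66 ± 0.11, limma adjusted p = 0.00111). It changed by -0.77 ± 0.11 with MCI-186 (limma adjusted p = 0.00045). Cox6a1 changed by -0.58 in each arm and Cox8a by -0.67 and -0.58. Cox7a2 changed by -0.73 and -0.74, the first from 2 injured pups because 1 spot was flagged as an outlier (limma adjusted p from 0.00094 to 0.00315 for these 3 genes). All of these had injured pups below controls in both arms.

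Cox4i2 and Cox7a2l were at the other end. Cox4i2, the lung isoform of subunit 4, which is induced by low oxygen in several cell types, was at -0.84, -0.95 and -0.82 in Rice + saline pups, against -0.69, -0.75 and -0.87 in Control + saline pups. The groups overlapped and the change was -0.10 ± 0.10 (limma adjusted p = 0.428). In the MCI-186 arm it was at -0.81, -0.63 and -0.92 in injured pups, against -0.64, -0.52 and -0.64 in controls (-0.18 ± 0.10, limma adjusted p = 0.133). Without Rice_MCI186 replicate 2 the change was -0.26 and passed (adjusted p = 0.0396), and without Rice_MCI186 replicate 3 it was -0.12 (adjusted p = 0.356). In the saline arm it was -0.06 without Control_saline replicate 1 or Rice_saline replicate 2 (adjusted p = 0.698 for each). Cox7a2l, which joins complexes III and IV into supercomplexes, changed by -0.26 ± 0.08 and -0.27 ± 0.08 (limma adjusted p = 0.0228 and 0.0187). Its calls were not firm, and with quantile normalization the changes were -0.10 and -0.07 and did not pass (adjusted p = 0.362 and 0.518). The saline call was lost without Control_saline replicate 2 or 3 or Rice_saline replicate 3 (adjusted p from 0.0599 to 0.0813), and the MCI-186 call without Control_MCI186 replicate 1 or 2 or Rice_MCI186 replicate 3 (adjusted p from 0.0536 to 0.0618).

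All 15 tested complex V genes were lower in both arms, with medians of -0.52 and -0.54. Atp5f1b, the catalytic beta subunit, was at 4.60, 4.46 and 4.41 in Rice + saline pups, against 5.05, 5.29 and 5.20 in Control + saline pups (-0.69 ± 0.09, limma adjusted p = 0.000285). Atp5f1c, the gamma subunit that forms the rotating shaft, changed by -0.68 ± 0.10 and -0.73 ± 0.10. Atp5mk, a small subunit linked to the pairing of ATP synthases, changed by -0.68 ± 0.13 and -0.83 ± 0.13 (limma adjusted p from 0.000263 to 0.002 for these 2 genes over both arms). Atp5mg, subunit g of the membrane part, changed by -0.56 ± 0.13 and -0.62 ± 0.13 (limma adjusted p = 0.00481 and 0.00256). Atp5if1, the inhibitor that stops the enzyme from running backwards, was at 5.44, 5.35 and 5.14 in Rice + saline pups, against 5.87, 5.95 and 5.82 in Control + saline pups (-0.57 ± 0.10, limma adjusted p = 0.00164). With MCI-186 its change was also -0.57 ± 0.10 (limma adjusted p = 0.00142), so the inhibitor fell by about as much as the subunits.

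Atp5mc1 and Atp5mc2 encode the same mature c subunit of the proton-driven ring. Atp5mc1 was at 5.28, 5.12 and 5.20 in Rice + saline pups, against 6.06, 6.09 and 5.71 in Control + saline pups (-0.75 ± 0.12, limma adjusted p = 0.000848). It changed by -0.83 ± 0.12 with MCI-186 (limma adjusted p = 0.000432). Atp5mc2 was at 5.50, 5.45 and 5.63 in Rice + saline pups, against 6.06, 6.05 and 5.64 in Control + saline pups, where the lowest control stood just above the highest injured pup (-0.39 ± 0.11, limma adjusted p = 0.0173). This call was lost without Control_saline replicate 1 (adjusted p = 0.0658), Control_saline replicate 2 (adjusted p = 0.0686) or Rice_saline replicate 2 (adjusted p = 0.0561), and with the mean over its probes (-0.20, adjusted p = 0.16). With MCI-186 Atp5mc2 changed by -0.50 ± 0.11 (limma adjusted p = 0.00453). It was also the gene whose probes differed most: the changes of its probes lay 0.38 apart with saline and 0.41 with MCI-186. Over the 7 genes of the set with several probes, all 16 probes were below 0 in both arms.

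Within an array, the ratio of paired subunit genes shows whether their changes were unequal. All 5 pairs of related genes among the 67 were compared, as a description with no test, since the pairs were chosen with results of these data known. The log2 ratio of Cox6a2 over Cox6a1, taken relative to its mean in the 6 controls, was between -1.98 and -0.45 in the 6 injured pups and between -0.33 and 0.37 in controls. That of Cox4i2 over Cox4i1 was between 0.41 and 0.70 in injured pups and between -0.11 and 0.15 in controls. For Atp5mc2, read by its brighter probe only, over Atp5mc1 the ratio was between 0.22 and 0.46 in injured pups and between -0.05 and 0.06 in controls. In these 3 pairs the injured and control pups did not overlap. Cox7a2l over Cox7a2 was between 0.32 and 0.64 in 5 injured pups and between -0.27 and 0.29 in controls, also without overlap. Cox8b over Cox8a overlapped, at -1.21 to 0.10 in injured pups and -0.24 to 0.37 in controls, and its mean difference of -0.63 was -0.05 with another background correction (normexp with quantile normalization). The mean difference for Cox4i2 over Cox4i1 was 0.57, and 0.34 with quantile normalization.

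**Figure D3:**
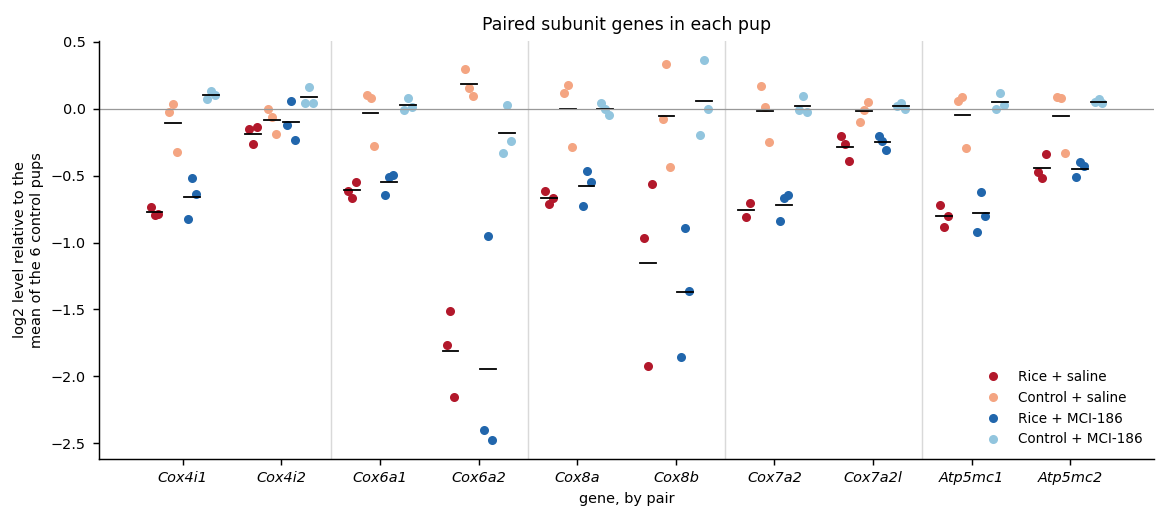
Log2 level of 10 paired subunit genes in each pup, relative to the mean of the 6 control pups for that gene; points are pups, bars are group means, and Cox7a2 has 2 points in Rice + saline. Cox6a2 lies between about -0.9 and -2.5 in injured pups while Cox6a1 lies near -0.6, and Cox4i2 stays near the controls while Cox4i1 lies between -0.5 and -0.9.

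The mean level of the chain was also read in each pup. Averaged over the 67 genes and taken relative to the mean of the 6 controls, the Rice + saline pups were at -0.53, -0.65 and -0.58, and the Control + saline pups between -0.13 and 0.05. The Rice + MCI-186 pups were at -0.66, -0.46 and -0.53, and the Control + MCI-186 pups between 0.00 and 0.06. Control + saline pup 3 was the lowest control for the set as a whole and for each of complexes I to V. For complex III the margin was small, at -0.04 against -0.03 in Control + saline pup 1. By complex the injured pups were furthest down for complex IV, at -0.71, -0.80 and -0.72 with saline and -0.89, -0.54 and -0.74 with MCI-186. That average includes the largest falls of the set in the main fit, those of Cox6a2 (-1.99 and -1.76) and of the dim Cox8b (-1.09 and -1.42). For complex II the injured pups were at -0.32, -0.44 and -0.27 with saline and -0.37, -0.43 and -0.19 with MCI-186. It was the complex nearest the controls in each injured pup but Rice + MCI-186 pup 2, where complex III was at -0.41.

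Markers of cell types changed strongly in the same samples. Of 13 neuronal markers, 11 were lower in Rice + saline than in Control + saline pups and 12 in Rice + MCI-186 than in Control + MCI-186 pups (limma), with medians of -0.93 and -0.92. Averaged per pup relative to the controls they were at -0.64, -0.92 and -1.33 in Rice + saline and -1.17, -0.52 and -1.23 in Rice + MCI-186, and between -0.06 and 0.05 in controls. In each arm the pup with the least loss of neuronal markers also had the smallest fall of the respiratory chain. This was pup 1 with saline and pup 2 with MCI-186. The lowest pup differed in both arms. Pup 3 was lowest for neuronal markers in each, while pup 2 with saline and pup 1 with MCI-186 were lowest for the chain. Of 15 microglia and macrophage markers, 14 were higher in each arm, and pups averaged 2.64 to 3.11 in Rice + saline and 2.36 to 3.14 in Rice + MCI-186, against -0.21 to 0.14 in controls. Of 9 astrocyte markers 6 were higher with saline and 7 with MCI-186, and 2 were lower in each arm, the glutamate transporter Slc1a2 (-0.73 and -0.81) and the glycolytic gene Aldoc (-0.54 and -0.41). Their average was 0.96 to 1.48 in injured pups and -0.19 to 0.15 in controls. The part of this shift in cell types in the fall of the chain was not tested.

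**Figure D4:**
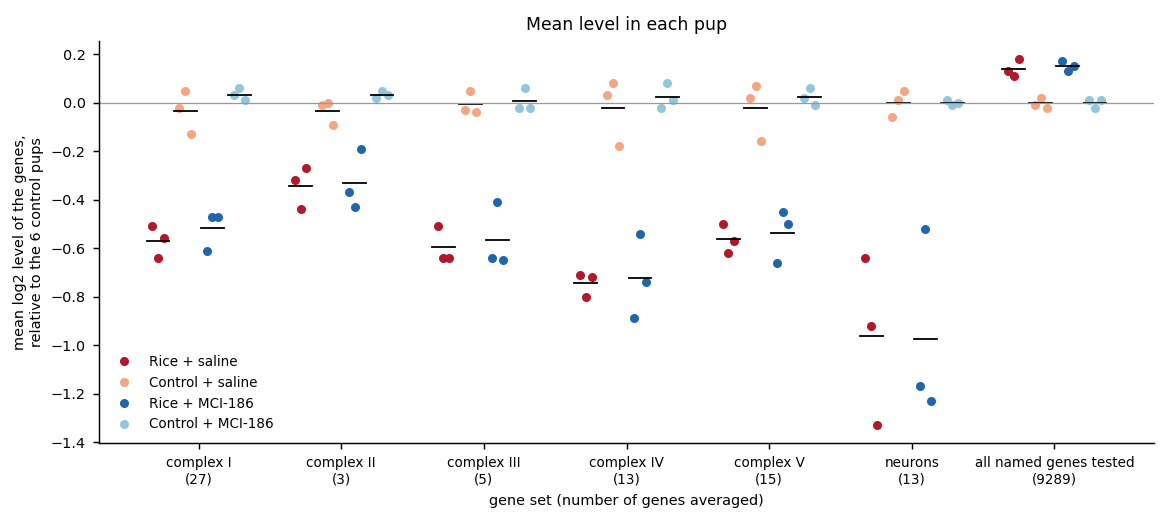
Mean log2 level of the genes of each complex, of 13 neuronal markers and of 9289 named genes in each pup, relative to the mean of the 6 control pups, with Rice groups left of their Control groups; points are pups and bars are group means. Injured pups lie below all controls for every complex and for neuronal markers, and slightly above them for the mean of all named genes.

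Muscle genes were read as well, because Cox6a2 and Cox8b are muscle forms. Of 10 listed muscle genes 6 were tested, and they did not move together. Acta1, skeletal muscle actin, changed by -1.21 and -0.97, the fast myosin gene Myh4 by -1.12 and -0.79 and Actn3 by -0.92 and -0.62, each lower in both arms (limma). The troponin gene Tnnt3 was higher in both, but it was well above background in 0 of 3 Control + saline pups and 1 of 3 Control + MCI-186 pups. Muscle creatine kinase, Ckm, was not well above background on any array. Averaged over the 6 genes, injured pups were between -0.22 and 0.15 and controls between -0.21 and 0.27, so the 2 overlapped. That average includes Tnnt3, which was near background in controls, so it does not show that the other genes stayed level. The median change of the 6 genes was -0.37 with saline and -0.35 with MCI-186. The somatostatin gene Sst, of another class of interneuron, was picked out after values were seen. It was at -0.24 ± 0.20 with saline and did not pass (limma adjusted p = 0.348), and changed by -1.03 ± 0.20 with MCI-186 (limma adjusted p = 0.00219). Injured pups were alike, at 4.31, 3.99 and 4.03 with saline and 4.02, 4.50 and 3.83 with MCI-186. The controls differed, at 4.51, 4.32 and 4.22 with saline and 4.74, 5.31 and 5.38 with MCI-186.

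MCI-186 was next compared with saline in each kind of pup. In injured pups none of the 67 genes was called (limma adjusted p = 1 for each), nor was any of all features (0%), and 2 genes had an unadjusted p under 0.05. The median difference was 0.04. One of the 2 genes was Ndufaf1, at -1.99, -1.97 and -1.96 in Rice + MCI-186 pups and -2.24, -2.21 and -2.14 in Rice + saline pups (0.23 ± 0.08). Atp5f1b, named by its rank in p, had a difference of 0.14 ± 0.09. Groups did not overlap for 4 genes, each higher with MCI-186, where this held for 2.49% of features, and 0 genes were lower in this way, against 2.3%. The 95% interval of the difference lay within -0.5 and 0.5 for 64 of the 67 genes. The exceptions were Cox6a2 (-0.89 to 0.63), Cox8b (-1.0 to 0.56) and Ndufs1 (-0.17 to 0.54), so differences of that size stay within the intervals of these 3 genes.

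In control pups MCI-186 also gave no call among the 67 genes (lowest limma adjusted p = 0.379), where 0.0309% of features were called higher and 0.0888% lower. The median difference was 0.07. In 13 of the 67 genes every Control + MCI-186 pup lay above every Control + saline pup, where this held for 12.8% of all features. In 1 of the 67 every such pup lay below, against 11.2% of features. Ndufaf3 had the lowest p, at 1.34, 1.35 and 1.35 in Control + MCI-186 pups and 1.12, 1.17 and 1.08 in Control + saline pups (0.22 ± 0.07). It was the only gene of the set with an unadjusted p under 0.05. Next were Cox6b2 (0.32 ± 0.15, and 0.17 without Control_MCI186 replicate 3) and Cox4i1 (0.21 ± 0.11, and 0.10 without Control_saline replicate 3). For 64 genes the interval lay within -0.5 and 0.5.

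Whether the injury effect itself differed between injections was tested by the difference of the 2 injury effects. No gene of the set passed (limma adjusted p = 1 for each), and none had an unadjusted p under 0.05, where 0.0232% of features were called higher and 0% lower. The median difference was -0.01, and for 54 of the 67 genes its interval lay within -0.5 and 0.5. The lowest p values were those of Cox6b2 (-0.40, interval -0.87 to 0.07, and -0.26 without Control_MCI186 replicate 3), Ndufaf1 (0.18, interval -0.07 to 0.44) and Sdhd (-0.17, interval -0.43 to 0.08). The wide intervals of Cox6a2 (-0.85 to 1.30) and Cox8b (-1.44 to 0.78) leave large differences possible for them.

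**Figure D5:**
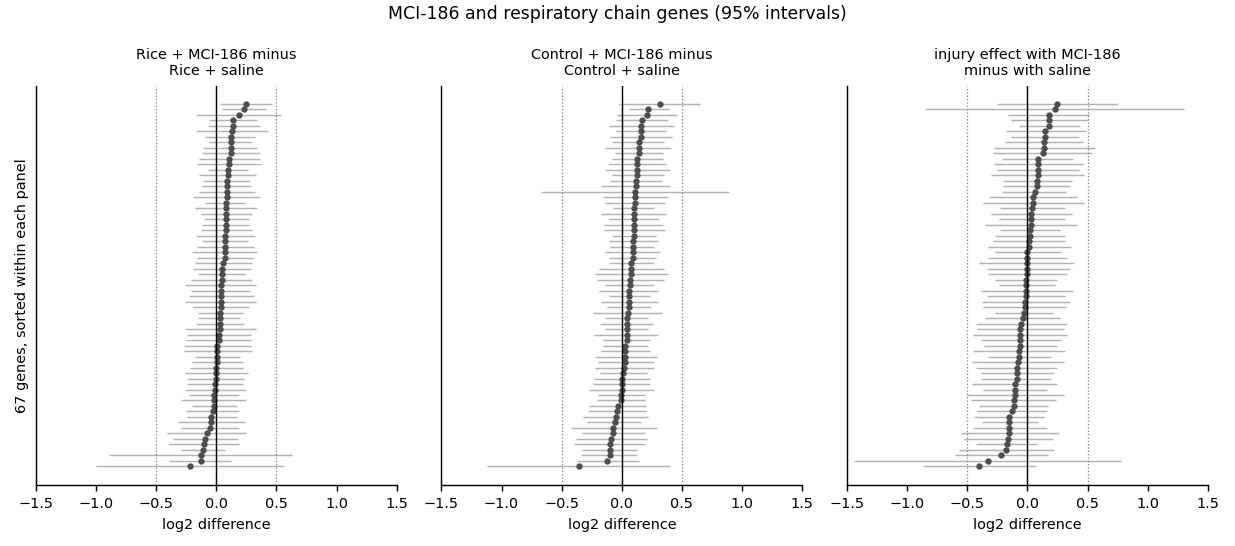
Log2 difference with its 95% interval for each of the 67 genes, sorted within each panel: MCI-186 minus saline in injured pups (left) and in control pups (middle), and the injury effect with MCI-186 minus that with saline (right); dotted lines mark -0.5 and 0.5. Points lie close to 0, and most intervals stay between the dotted lines.

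Other genes of mitochondrial energy metabolism were read from 5 further lists, beside the 30.2% and 31.8% of features called lower. Of 24 tested assembly factors and electron carriers outside the set, 17 were lower and 0 higher with saline, and 18 and 0 with MCI-186 (limma), with medians of -0.39 and -0.42. Cytochrome c, Cycs, which carries electrons from complex III to complex IV, was at 4.91, 4.69 and 4.63 in Rice + saline pups, against 5.49, 5.68 and 5.60 in Control + saline pups (-0.84 ± 0.12, limma adjusted p = 0.000422). With MCI-186 it changed by -0.88 ± 0.12 (limma adjusted p = 0.000289). Its groups did not overlap in either arm. Ttc19, an assembly factor of complex III, changed by -0.78 and -0.71, and the copper chaperone Cox17 by -0.60 and -0.71.

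The tricarboxylic acid cycle genes split in 2 directions. Of 27 tested, 18 were lower and 3 higher in each arm, with medians of -0.42 and -0.45. The mitochondrial malate dehydrogenase gene Mdh2 changed by -0.72 and -0.74, Pdhb, of the pyruvate dehydrogenase complex, by -0.89 and -0.83, and the pyruvate carrier gene Mpc1 by -0.72 and -0.92. The NAD-dependent isocitrate dehydrogenase genes Idh3a, Idh3b and Idh3g were lower in both arms. The 3 higher genes were the NADP-dependent Idh1 (0.60 and 0.32) and Idh2 (0.71 and 0.76), and pyruvate carboxylase, Pc (0.43 and 0.42), an enzyme of astrocytes in brain. Of 27 carrier, pore and import genes, 20 were lower with saline and 21 with MCI-186, with medians of -0.39 and -0.44. The outer membrane channel Vdac1 changed by -0.89 and -1.12. Only the uncoupling protein gene Ucp2, which microglia and macrophages express, was higher, by 1.25 ± 0.17 and 1.89 (limma adjusted p = 0.000293 and 2.2e-05).

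Of 63 tested mitochondrial ribosomal protein genes 35 were lower with saline and 41 with MCI-186, and 0 higher, with medians of -0.31 and -0.34. Regulators of mitochondrial biogenesis did not fall as a group. Of 20 tested, 8 were lower and 3 higher in each arm, with medians of -0.05 and -0.13. The coactivator Ppargc1a, which drives expression of the chain with its nuclear partners, changed by -1.18 ± 0.22 with saline and by -1.18 with MCI-186 (limma adjusted p = 0.00195 and 0.00177). Ppargc1b changed by -0.95 and -0.47, the nuclear receptor Esrra by -0.69 and -0.52 and the deacetylase Sirt3 by -0.57 and -0.68 (limma adjusted p from 0.000449 to 0.0181). Gabpa, the ETS factor subunit whose core motif was searched above, was higher by 0.42 and 0.45 (limma adjusted p = 0.0127 and 0.0088). Tfam, which packages and transcribes mitochondrial DNA, was at 0.02 and 0.10 and Yy1 at 0.28 and 0.23, and neither passed.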

How the data were processed

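RNA of 12 pups was hybridised to 12 arrays. Per the file headers, the authors scanned with Agilent Feature Extraction (version 9.5.3.1), and the deposited intensity of a spot is linear, with background already subtracted. A deposited table of log2 values was also given; set against the scanner signals, scaled and centred per probe, its columns correlated at 0.9994 or more, with medians from -0.12 to 0.12. No source used here says how the authors made it.

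Each processed signal was taken over its array's 75th percentile, floored at 0.005 and put on the log2 scale. Controls and 70 to 160 outlier spots per array were left out. A probe was kept if every array of some group read it well above background. RefSeq accessions of GRCr8 named 15184 of 41012 probes, and the brightest kept probe stood for its gene. The tests used limma (3.58.1, under R 4.3.3, after Python 3.11.15 for reading): 4 group means over 12 arrays, 8 residual and 2.5 prior degrees of freedom, 6 contrasts, and Benjamini-Hochberg adjustment over all features at 0.05. Intervals cover 95%. The number of arrays limits the precision.

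Named genes were, per complex and arm, the 4 with the largest falls among those that passed, all related pairs, all Sdh genes, Atp5if1, and the 3 lowest p in each comparison with no call; others are said to be picked later. The values of 1 gene that this rule picked are not reported here. The 67 genes and all lists were chosen with earlier results of these data known. The paired ratios were added after the data were seen, and the nuclear respiratory factor 1 motif was shortened by 1 letter after a longer form had been searched, which raised its matches. The alternatives were another scaling, normexp (offset 50) on median signals, as the files hold no mean signal, quantile normalization, probe filters, the mean over probes, the value table, an intensity trend, blocks, fewer groups, and leaving out each array. The fitting script was tested on simulated data.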

Additional observations from a re-analysis of the deposited data

How the results depend on the processing

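Every one of the 67 genes stayed below 0 for injury in both arms under every setting run (17 per arm, and Cox8b was not tested in the 1 that asked for signal on all 12 arrays), and 55 with saline, 52 with MCI-186 and 63 for the average of both passed limma under every setting run. Left-out arrays gave 58 to 64 genes lower with saline, 58 to 65 with MCI-186 and 66 to 67 for the average. Quantile normalization gave medians of -0.40 in both arms (60 and 53 lower), normexp with quantile normalization -0.39 and -0.40 (59 and 55 lower), and scaling to each array's median -0.65 and -0.62. With the replicate number as a block, 63, 62 and 66 genes were lower for saline, MCI-186 and the average. Same-numbered arrays of different groups deviated together in few cases (correlations from -0.28 to 0.54 over 18 pairs). These correlations cannot settle whether the numbers pair the pups. With slide as a random block 67 genes were lower for the average, at a correlation of -0.226 between arrays of a slide. Since each slide held 1 group, this fit cannot separate slide from group. The added call was Cox4i2, at the same change of -0.14 (limma adjusted p = 0.0161, against 0.0941 in the main fit). A fit to only the 2 groups compared gave 58 and 63. Among 1139 recomputed values of named genes 0 reversed, 26 lost and 8 gained a call; the cause was not tested. No gene of the set was called for MCI-186 or for the difference of injury effects under any setting run. Signal near background limits Cox8b, and 3 pups a group limit differences below about 0.5.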

Other observations

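Markers of oligodendrocytes were also read. Of 10 tested, 7 were lower and 1 higher in Rice + MCI-186 than in Control + MCI-186 pups, and 1 was lower and 2 higher in Rice + saline than in Control + saline pups (limma). The myelin genes Mobp and Mag changed by -2.43 and -1.87 with MCI-186. With saline they were at -1.05 and -0.43, where Mobp passed and Mag did not, and 0 of the 10 passed the test of the difference between the injury effects. The progenitor gene Pdgfra was higher in both arms, by 0.51 with MCI-186 and 0.47 with saline. Of 9 endothelial, mural and fibroblast markers 5 were higher and 3 lower in each arm, with the collagen gene Col3a1 at 2.51 with MCI-186 and 2.26 with saline and the tight junction gene Cldn5 at -0.38 and -0.51. None of 5 red blood cell genes passed in either arm by limma (Hbb-b1 alone, with saline, had an unadjusted p under 0.05), with medians of 0.26 with MCI-186 and -0.64 with saline.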
